A study of Mus musculus with 4 samples.

Results

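The genes described here are 10 regulators of the decision to pass from G1 into S phase, chosen by their symbols in the deposited gene tables and found in all 4 libraries, out of 31053 genes measured. They comprise 5 genes of Cdk inhibitors (Cdkn1a, Cdkn1b, Cdkn1c, Cdkn2c and Cdkn2d), the 3 D cyclins (Ccnd1, Ccnd2 and Ccnd3) and 2 pocket proteins (Rb1 and Rbl1). The cells came from the dorsal V-SVZ, the germinal layer that lines the lateral ventricle, of wild-type OF1 mice at postnatal day (P) 2, 12 or 22. The labels name no treatment, so that the groups differ by age and share strain, microdissection, papain dissociation, a sort of viable cells and 10x Genomics 3' version 3 chemistry. There were 2 libraries at P12, from independent experiments, and 1 each at P2 and P22. The labels give males throughout and the methods state that 2 mice were pooled by time point and that the P2 pool held a female.

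In a cell leaving G0, D cyclins bind Cdk4 or Cdk6 and phosphorylate Rb and its relatives p107 (Rbl1) and p130 (Rbl2), which then release E2F factors. Inhibitors of the INK4 family (Cdkn2c, which encodes p18, and Cdkn2d, which encodes p19) block Cdk4 and Cdk6, whereas those of the Cip/Kip family (Cdkn1a, Cdkn1b and Cdkn1c, which encode p21, p27 and p57) also act on Cdk2 complexes. In the V-SVZ these proteins are known for holding neural stem cells in quiescence and for taking the daughters of dividing progenitors out of the cycle.

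In GRCm38 (GENCODE annotation) the Cip/Kip genes are at chr17:29090976-29100727 (Cdkn1a, plus strand), chr6:134920401-134925513 (Cdkn1b, plus) and chr7:143458339-143461050 (Cdkn1c, minus). The INK4 genes are at chr4:109660876-109667189 (Cdkn2c, minus) and chr9:21288410-21291407 (Cdkn2d, minus). The D cyclin genes are at chr7:144929931-144939925 (Ccnd1, minus), chr6:127125162-127152193 (Ccnd2, minus) and chr17:47505051-47599691 (Ccnd3, plus). Rb1 spans chr14:73183673-73325822 on the minus strand, where Gm17233 and Mir687 overlap it on the same strand, so that its counts cannot be separated from theirs by strand. Rbl1 spans chr2:157145893-157204534 on the minus strand.

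Cells were placed in classes by clustering on genes other than these 10 and the lists used below, and levels are UMIs of a gene per 1000000 UMIs of a class in a library (CPM). The quiescent class (qNSC-like) held 453 cells at P2, 3230 and 2509 in P12 libraries 1 and 2 and 541 at P22. The activated class (aNSC-like) held 191, 433, 158 and 361 cells, the dividing class (TAP-like) 678, 1346, 517 and 920, and the postmitotic class (neuroblast-like) 2038, 125, 16 and 1464. Of their markers, 24 to 25 of 25, 23 to 24 of 24, 21 of 21 and 20 of 20 were higher in the class than in the other cells, in each library in which the class had at least 20 cells. The activated class was led by the replication genes Ung, Cdc6, Chaf1b and Mcm3, and 99.2% to 100% of its cells were called S or G2/M, nearly all of them S. The class is thus one of cells called S, and cells that had left quiescence without being called S are not in it. Dividing cells called G2/M were 499 of 678 at P2, 1014 of 1346 and 390 of 517 at P12, and 642 of 920 at P22. The step from activated to dividing cells thus also compares cell cycle phases. Clusters 4 (led by Igf1 and Wfikkn2), 8 (led by Olig1, also with Olig2 and Egfr) and 10 stayed unnamed.

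The deposited libraries held 65323423 to 106402687 UMIs, and 4027 to 7004 cells a library were used. Library 2 of P12 stood apart for several of the genes. Its Cdkn1c level was 2.80 CPM in dividing cells against 19.4 in library 1, and its Rb1 level was 128 CPM in quiescent cells against 71.5. In dividing cells its Cdkn2d level was 103 against 177 CPM and its Ccnd2 level 2007 against 3173 CPM. The libraries were compared within themselves in every test below, so that a difference of this kind between libraries is taken out. Pairs of libraries shared 3 to 8 cell barcodes.

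**Figure D1:**
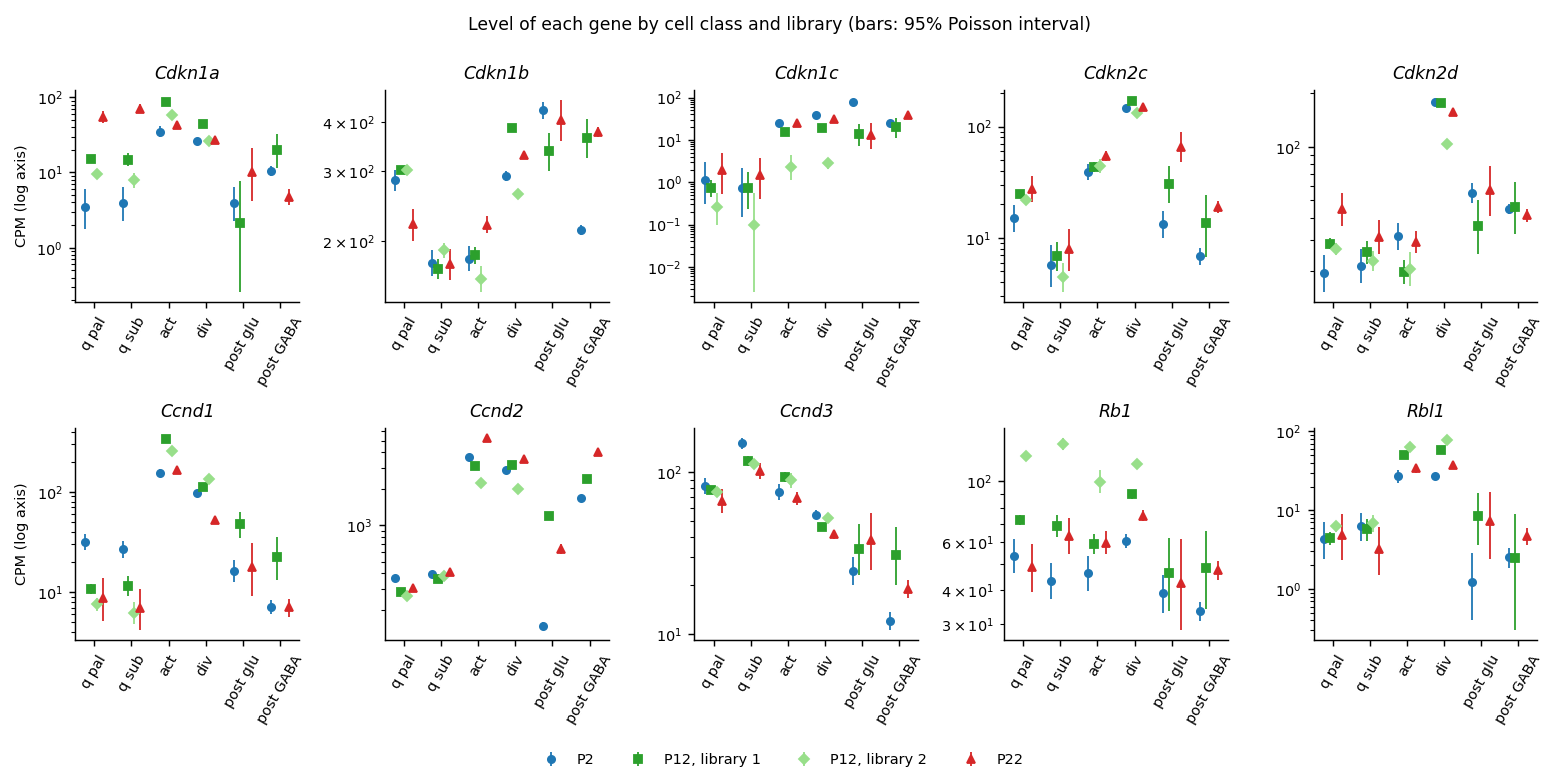
Level of each of the 10 genes in CPM (log axis) by cell class, with 1 point per library and the exact 95% Poisson interval as bars; q pal and q sub are pallial and subpallial quiescent cells, act activated, div dividing, post glu and post GABA postmitotic glutamatergic and GABAergic cells. Cdkn2c and Cdkn2d peak in dividing cells in every library, and Ccnd1 in activated cells among these classes. Between libraries Cdkn1a spans 3.45 to 55.4 CPM in pallial and 3.99 to 70.8 CPM in subpallial quiescent cells.

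From quiescent to activated cells, 6 of the 10 genes rose and 0 fell (edgeR quasi-likelihood test with the library as a block, adjusted p below 0.05 over 12677 genes, n = 4 libraries). Of all genes tested, 30.7% rose and 32.3% fell. Those that rose were Ccnd1 and Ccnd2, the pocket protein gene Rbl1, and the inhibitor genes Cdkn1a, Cdkn1c and Cdkn2c. Levels did not overlap between the classes for 5 of the 10, beside 39.6% of all genes tested. Whether any member fell depended on the setting. With P12 alone, 6 rose and 3 fell, beside 4876 and 5123 of 14664 genes tested. In the fit without P22, 6 rose and 1 fell (3561 and 3900 of 12951 genes). With cluster 8 in the activated class, 6 rose and 2 fell (3938 and 4010 of 13073 genes). From activated to dividing cells, 6 rose and 3 fell, against 21.1% and 19.9% of all genes. From dividing to postmitotic cells 0 rose and 8 fell, against 23.2% and 24.6% of all genes (n = 3 libraries, since P12 library 2 had 16 postmitotic cells). The 8 included the inhibitor genes Cdkn1a, Cdkn2c and Cdkn2d as well as the D cyclins. Cdkn1b and Cdkn1c had log2 differences of -0.21 ± 0.12 (SE) and -0.14 ± 0.16 there, with adjusted p = 0.184 and 0.495.

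**Figure D2:**
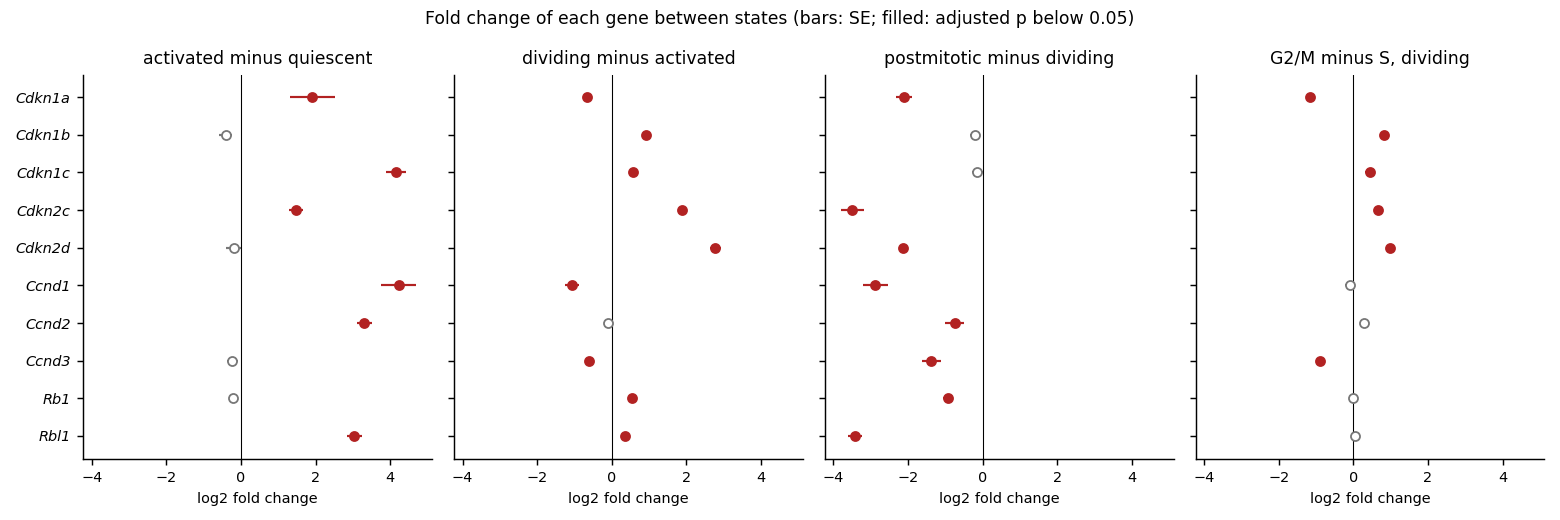
Log2 fold change of each gene (edgeR, library as a block, bars ± SE) from quiescent to activated, activated to dividing and dividing to postmitotic cells, and between dividing cells called G2/M and S; filled points have an adjusted p below 0.05. No gene lies to the right of 0 in the postmitotic step, where Cdkn2c, Rbl1 and Ccnd1 show the widest falls at -3.50, -3.41 and -2.87.

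Cdkn1b, the Cip/Kip inhibitor that binds cyclin-Cdk complexes in G0 and G1, was detected in each class. Its level in quiescent cells was 226 CPM at P2, 276 and 268 at P12 and 194 at P22. In activated cells it was 180, 184, 160 and 220 CPM in the same order, lower than in quiescent cells in 3 of 4 libraries and higher at P22. The difference of -0.41 ± 0.18 on the log2 scale did not pass the test (adjusted p = 0.0761), though it did without P22 (-0.60, adjusted p = 0.0134). Dividing cells held 292, 387, 262 and 330 CPM, and the rise from activated cells was 1.89-fold (log2 0.92 ± 0.08, adjusted p = 2.05e-06, 4 of 4 libraries, groups apart). Postmitotic cells held 250 CPM at P2, 349 in P12 library 1 and 378 at P22, below the dividing cells of the same library in 2 of 3.

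Cdkn1a, the inhibitor that p53 and growth signals induce, was the member whose activation step depended most on the library. Quiescent cells held 3.74 CPM at P2, 15.1 and 8.95 at P12 and 64.2 at P22, and activated cells 35.0, 86.2, 57.3 and 42.1. Activated cells were thus higher in 3 of 4 libraries, by 2.43 to 2.93 as differences of log2(CPM + 1), and lower at P22 by 0.60. The fitted rise of 3.75-fold (log2 1.91 ± 0.61, adjusted p = 0.0276) was lost without P12 library 1 (log2 1.67, adjusted p = 0.118), P12 library 2 (1.60, 0.0901) or P2 (1.56, 0.0997). Dividing cells held 26.1, 44.6, 26.1 and 26.6 CPM, below activated cells in 4 of 4 libraries (log2 -0.66 ± 0.10, adjusted p = 2.86e-04), and postmitotic cells 9.35, 10.2 and 5.01 at P2, P12 and P22 (log2 -2.11 ± 0.21, adjusted p = 6.35e-04).

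Other levels moved beside Cdkn1a in quiescent cells. The summed level of 15 genes of p53 and its targets other than Cdkn1a was 715 CPM at P2, 2024 and 2291 at P12 and 1219 at P22, and that of 15 immediate-early genes, which dissociation can raise, was 10237, 28494, 22693 and 15743 CPM. Both sums were higher at P22 than at P2, as Cdkn1a was, and both were highest at P12. Oligodendroglial markers summed to between 13.6 and 178 CPM in quiescent cells, and oligodendroglial-like cells held Cdkn1a at 28.1 CPM at P22, below the quiescent cells of that library. Cdkn1a reached 202 CPM in astrocyte-like and 194 CPM in ependymal-like cells at P22. The part of these cells or programmes in the Cdkn1a level of quiescent cells was not tested.

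Cdkn1c, an imprinted Cip/Kip gene, was close to absent from quiescent cells and present from activation on. Quiescent cells held 0.935 CPM at P2, 0.730 and 0.212 at P12 and 1.66 at P22. Activated cells held 24.6, 15.6, 2.35 and 24.5 CPM, higher in 4 of 4 libraries by 17.8-fold (log2 4.15 ± 0.28, adjusted p = 2.98e-05), with P12 library 2 lowest in each class. Dividing cells held 38.2, 19.4, 2.80 and 30.7 CPM, a rise of 1.47-fold in the fit (log2 0.55 ± 0.10, adjusted p = 9.76e-04, 4 of 4 libraries). When cluster 8 was added to the activated class this difference became -0.093 (adjusted p = 0.447), and that cluster held 68.1, 41.97, 4.42 and 47.1 CPM. Oligodendroglial-like cells held 111, 44.6 and 69.3 CPM at P2, in P12 library 1 and at P22, and endothelial-like cells 175 CPM in P12 library 2. Oligodendroglial markers summed to 32.7 to 110 CPM in activated and 13.6 to 178 CPM in quiescent cells and endothelial markers to 2.62 to 4.23 and 13.1 to 21.1 CPM, and their part in the Cdkn1c step was not tested.

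Both INK4 genes peaked in dividing cells. Cdkn2c levels were 10.1, 20.9, 16.4 and 16.4 CPM in quiescent cells (P2, P12 libraries 1 and 2, P22), 39.1, 43.3, 44.2 and 54.0 in activated cells and 148, 170, 131 and 149 in dividing cells. No 2 successive classes overlapped. It rose 2.77-fold on activation (log2 1.47 ± 0.18, adjusted p = 3.56e-04) and a further 3.68-fold in dividing cells (log2 1.88 ± 0.09, adjusted p = 5.97e-09). Postmitotic cells were back at 7.95, 22.8 and 21.2 CPM, 11.3-fold below dividing cells (log2 -3.50 ± 0.31, adjusted p = 5.65e-04).

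Cdkn2d took its step later than Cdkn2c. Its levels were 20.6, 27.9, 25.4 and 37.0 CPM in quiescent and 31.4, 19.8, 20.7 and 29.2 CPM in activated cells, which overlapped (log2 -0.18 ± 0.21, adjusted p = 0.463). Dividing cells held 178, 177, 103 and 158 CPM, a rise of 6.86-fold (log2 2.78 ± 0.14, adjusted p = 3.28e-06). Postmitotic cells held 46.6, 40.4 and 41.97 CPM, below dividing cells in 3 of 3 libraries (log2 -2.12 ± 0.10, adjusted p = 4.18e-05) and above the quiescent level of the same library in each.

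The D cyclins differed in where they were high. Ccnd1, the D cyclin that mitogens induce through Ras signalling, held 29.2, 10.9, 7.19 and 7.69 CPM in quiescent cells (P2, P12 libraries 1 and 2, P22) and 156, 334, 257 and 164 in activated cells. It rose 18.7-fold (log2 4.22 ± 0.47, adjusted p = 2.35e-04) with no overlap. In dividing cells its level was 96.7, 112, 134 and 52.7 CPM, lower in 4 of 4 libraries (log2 -1.07 ± 0.20, adjusted p = 0.0151), and in postmitotic cells 8.71, 35.8 and 7.55 CPM (log2 -2.87 ± 0.33, adjusted p = 0.00133). Dividing cells that had no Olig1 or Olig2 UMI and expressed only subpallial regional genes held 23.7, 53.7, 72.4 and 29.2 CPM. Those with only pallial regional genes held 62.0 and 48.2 CPM in P12 libraries 1 and 2. The part of cells with Olig1 or Olig2 in the Ccnd1 level of the dividing class was not tested. The oligodendroglial-like class, which holds precursors, had 377, 659 and 247 CPM of Ccnd1.

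Ccnd2 is the D cyclin known for its role in neural progenitors and adult neurogenesis. It rose from 383, 298, 298 and 365 CPM in quiescent cells to 3647, 3114, 2222 and 5241 CPM in activated cells, 9.89-fold (log2 3.31 ± 0.19, adjusted p = 1.70e-05). Dividing cells held 2891, 3173, 2007 and 3567 CPM, which overlapped with activated cells (log2 -0.10 ± 0.10, adjusted p = 0.444). Unlike Ccnd1, it remained high in postmitotic cells of P22, with 1410 CPM at P2, 1753 at P12 and 3842 at P22. The fall from dividing cells of 1.68-fold (log2 -0.75 ± 0.24, adjusted p = 0.0488) was near the threshold, was seen in 2 of 3 libraries, and was lost without P12 library 1 (adjusted p = 0.192) or P2 (0.191).

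Ccnd3, the D cyclin with the broadest tissue range, held 119, 85.8, 86.5 and 86.9 CPM in quiescent and 75.4, 93.9, 89.1 and 69.2 CPM in activated cells. These overlapped (log2 -0.24 ± 0.15, adjusted p = 0.187). It fell to 54.5, 45.9, 51.8 and 41.4 CPM in dividing cells (log2 -0.62 ± 0.08, adjusted p = 7.48e-05) and to 14.2, 32.4 and 20.0 CPM in postmitotic cells (log2 -1.37 ± 0.26, adjusted p = 0.00812), lower in each library at both steps. Ccnd3 and Ccnd1 thus fell where Cdkn2c and Cdkn2d rose, from activated to dividing cells, and Ccnd2 overlapped there. In dividing cells called S, Ccnd3 held 94.8, 82.3, 75.7 and 54.8 CPM, above activated cells at P2 and below them at P12 and P22. Ccnd1 held 118, 141, 120 and 50.9 CPM in these S cells, below activated cells in each library.

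Of the pocket protein genes, Rbl1 followed entry into the cycle and Rb1 was present throughout. Rbl1 held 5.34, 4.68, 6.43 and 3.95 CPM in quiescent, 27.1, 49.7, 62.5 and 34.2 in activated and 27.0, 57.3, 78.9 and 38.0 in dividing cells. It rose 8.18-fold on activation (log2 3.03 ± 0.20, adjusted p = 2.72e-05) and by log2 0.34 ± 0.08 in dividing cells (adjusted p = 0.00352, 3 of 4 libraries higher). Postmitotic cells held 2.29, 5.69 and 4.80 CPM, 10.6-fold less (log2 -3.41 ± 0.18, adjusted p = 5.52e-05). Rb1 held 48.1, 71.5, 128 and 56.9 CPM in quiescent and 46.2, 59.0, 99.4 and 59.6 CPM in activated cells, which overlapped (log2 -0.20 ± 0.13, adjusted p = 0.201). It rose in dividing cells to 60.5, 89.4, 116 and 74.8 CPM (log2 0.54 ± 0.07, adjusted p = 8.40e-05) and fell to 34.5, 47.2 and 47.1 CPM in postmitotic cells (log2 -0.94 ± 0.11, adjusted p = 0.00106).

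With the named classes put in order of mean level over the P12 libraries, most neighbours overlapped in their ranges over libraries. The ranges over libraries did not overlap between activated and dividing or between dividing and postmitotic glutamatergic cells for Ccnd1. They were also apart between subpallial quiescent and activated cells and between dividing and postmitotic glutamatergic cells for Ccnd3, between GABAergic and glutamatergic postmitotic and between ependymal-like and oligodendroglial-like cells for Ccnd2, and between oligodendroglial-like and postmitotic GABAergic cells for Cdkn1c. For Cdkn1a, Cdkn1b, Cdkn2c, Cdkn2d, Rb1 and Rbl1 every pair of neighbours overlapped.

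The other genes of the pathway moved with these members by class. Of 7 genes for the partner kinases and for cyclins E and A, 7 rose on activation and 7 fell in postmitotic cells, with medians of 3.70 and -4.07 on the log2 scale beside -0.02 and 0.02 over all genes tested. Ccne1, the cyclin of the G1/S transition, rose from 1.52 to 58.8 CPM on average, and Cdk6, a partner of the D cyclins, from 8.88 to 208 CPM. Of 10 E2F and DP genes, 9 rose and 1 fell on activation, 4 rose and 2 fell in dividing cells, and 10 fell in postmitotic cells. E2f1, an activator, rose from 4.58 to 121 CPM and fell to 54.2 CPM in dividing cells, whereas E2f7 and E2f8, which repress, rose at both steps (E2f8 from 0.516 to 22.5 and 63.5 CPM).

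The third pocket protein gene, Rbl2, and the inhibitor gene Cdkn2b fell on activation. Of Cdkn2a, Cdkn2b and Rbl2, 2 were tested there and 2 fell. Rbl2, which encodes p130 and is known from quiescent cells, went from 67.4 to 29.8 CPM (log2 -1.36 ± 0.16, adjusted p = 2.68e-04), while Rbl1 rose at this step. Cdkn2b went from 4.56 to 0.858 CPM, and Cdkn2a was too low to be tested there and averaged 3.38 CPM in dividing cells. In the later steps 2 of 3 rose in dividing cells and 2 of 3 fell in postmitotic cells.

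Of 7 genes of the MuvB complex, B-Myb and FoxM1, which serve later transcription in the cycle, 5 rose and 1 fell on activation, 4 rose and 0 fell in dividing cells and 6 fell in postmitotic cells. Foxm1 rose at both steps, from 1.22 to 11.5 and 78.4 CPM. Of 8 genes for turnover and upstream control, 5 rose and 3 fell on activation. Skp2 and Cks1b, parts of the ligase that degrades p27, rose from 13.5 to 69.7 and from 13.8 to 162 CPM, and the Cdkn1b transcript did not pass the test at that step. In dividing cells 3 of the 8 rose and 4 fell, and in postmitotic cells 2 rose and 3 fell, with Foxo3, a factor that induces Cdkn1b, at 26.9 against 11.1 CPM. Of 13 genes of p53 and its targets tested on activation 3 rose and 6 fell (median -0.48), and Trp53 itself rose from 49.2 to 196 CPM. In the next steps 4 rose and 5 fell, then 3 rose and 4 fell, of 14 tested. Of 15 immediate-early genes 0 rose and 12 fell on activation, 2 rose and 10 fell in dividing cells and 2 rose and 5 fell in postmitotic cells.

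Within the dividing class, cells called G2/M were compared with cells called S. Of the 10 genes 4 were higher and 2 lower in G2/M, against 23% and 21.5% of all genes tested (edgeR, n = 4 libraries). Cdkn2d stood at 203, 202, 115 and 182 CPM in G2/M (P2, P12 libraries 1 and 2, P22) and 110, 98.5, 65.5 and 103 in S, with no overlap (log2 0.98 ± 0.05, adjusted p = 2.52e-11). Cdkn1b was likewise higher, at 329, 434, 286 and 370 against 190, 236, 183 and 239 CPM (log2 0.82 ± 0.05, adjusted p = 1.22e-10), as was Cdkn2c (log2 0.67 ± 0.05, adjusted p = 1.57e-09). The rise of Cdkn1c (log2 0.45 ± 0.14, adjusted p = 0.0175, 3 of 4 libraries higher) was lost without P12 library 1 (adjusted p = 0.0880) or P2 (0.129). Cdkn1a ran the other way, with 16.4, 36.7, 19.5 and 18.9 CPM in G2/M and 52.8, 69.9, 48.2 and 44.6 in S (log2 -1.16 ± 0.10, adjusted p = 4.88e-07). These S levels of Cdkn1a were above the activated class at P2 and P22 and below it in both P12 libraries. The S levels of Cdkn1b were above the activated class in each library. Ccnd3 also fell (log2 -0.90 ± 0.11, adjusted p = 9.31e-05), and Ccnd1, Rb1 and Rbl1 lay within 0.09 of 0. Ccnd2 had a difference of 0.29 ± 0.09 (adjusted p = 0.0686), which passed without P22 (0.39, adjusted p = 5.18e-06).

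How the classes are made decided several postmitotic results. The methods of the study describe clusters of P12 cells, used to identify cells at P2 and P22, and also classes by marker thresholds. By the thresholds, neuroblasts are cells above set levels of Dcx, Cd24a and Nrxn3. Of the cells that these thresholds call postmitotic, the clusters call dividing 275 of 1925 at P2, 435 of 521 in P12 library 1, 10 of 16 in library 2 and 374 of 1824 at P22. With these classes 4 of the 10 genes rose and 3 fell from dividing to postmitotic cells, against 16.5% and 14.4% of all genes tested. Cdkn1b rose by log2 1.14 ± 0.13 (adjusted p = 0.00253), with 282 against 160 CPM at P2, 564 against 232 at P12 and 410 against 204 at P22. Cdkn2d rose by 1.17 ± 0.25 (adjusted p = 0.0194) instead of falling, and Ccnd2 and Rb1 also turned, by 0.37 (adjusted p = 0.0467) and 0.53 (0.0349). Ccnd1, Ccnd3 and Cdkn1a fell under both kinds of class. Cells with neuroblast markers that the clusters call dividing thus count as postmitotic under the thresholds.

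**Figure D3:**
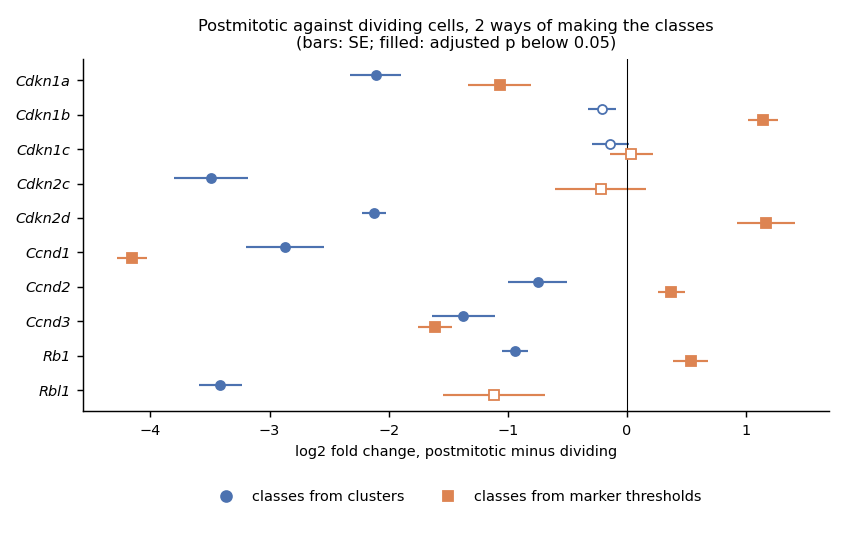
Log2 fold change of each gene from dividing to postmitotic cells (bars ± SE), with classes from clusters (circles) or from marker thresholds (squares); filled points have an adjusted p below 0.05. Cdkn1b, Cdkn2d, Ccnd2 and Rb1 lie above 0 with the thresholds and below 0 with the clusters, while Cdkn1a, Ccnd1 and Ccnd3 lie below 0 with both.

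The thresholds also changed the earlier steps for some genes. From activated to dividing cells 4 of the 10 rose and 0 fell with them, against 22.9% and 21.9% of all genes tested. Ccnd2 rose (log2 1.18, adjusted p = 1.202e-10), and Cdkn1a and Ccnd1, which fell between the clusters, had differences of 0.45 (adjusted p = 0.375) and 0.13 (0.337). From quiescent to activated cells 7 of the 10 rose and 2 fell with the thresholds, beside 3529 and 3665 of 11467 genes tested. Cdkn2d rose there by 0.69 (adjusted p = 0.00375). The rises of Cdkn1c, Ccnd1, Ccnd2 and Rbl1 on activation were present under both.

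Pallial and subpallial lineages were compared within each state. Quiescent clusters were called pallial or subpallial by regional genes held out of the clustering, such as Emx1 and Gsx2. In quiescent cells 2 of the 9 genes tested were higher and 2 lower in pallial clusters, against 11.4% and 12.2% of all genes (edgeR, n = 4 libraries). Cdkn1c was too low to be tested. Pallial quiescent cells are reported by the study as virtually absent at P2. Without P2 the counts were also 2 and 2, beside 1628 and 1928 of 12911 genes tested. Cdkn2c held 15.2, 24.6, 21.7 and 27.7 CPM in pallial cells and 5.73, 6.91, 4.45 and 7.99 in subpallial cells, with no overlap (3.74-fold, log2 1.90 ± 0.14, adjusted p = 3.51e-07). Cdkn1b held 285, 303, 303 and 220 against 176, 170, 189 and 175 CPM, also apart (1.57-fold, log2 0.65 ± 0.07, adjusted p = 1.24e-05).

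Of the D cyclins, Ccnd2 and Ccnd3 were lower in the pooled pallial quiescent cells. Ccnd3 held 82.2, 77.4, 75.2 and 66.6 CPM in pallial and 151, 118, 112 and 102 in subpallial cells (log2 -0.67 ± 0.07, adjusted p = 5.49e-06), with no overlap. Ccnd2 held 368, 282, 262 and 305 against 395, 359, 378 and 410 CPM, lower in 4 of 4 libraries with overlapping ranges (log2 -0.36 ± 0.07, adjusted p = 0.00234). These sums pool 2 pallial clusters, within which the difference was not tested. Ccnd2 held 234, 215 and 274 CPM in the Thbs4 cluster (P12 libraries 1 and 2, P22), and 374, 392, 374 and 417 CPM in the Rgs5 cluster (P2, P12 libraries 1 and 2, P22), where it was above the subpallial cells of the same library in 2 of 4. Ccnd3 held 64.5, 67.7 and 65.7 CPM in the Thbs4 cluster and 83.2, 106, 93.2 and 69.5 CPM in the Rgs5 cluster, below subpallial cells in each library. Cdkn2c and Cdkn1b were above subpallial cells in both clusters, in each library that had the cluster. Ependymal markers, which summed to 60.7 to 149 CPM in pallial and 211 to 261 CPM in subpallial quiescent cells, moved in the same direction as Ccnd3, and their part was not tested. When cells were instead split by single-cell gates on regional genes, 2 genes were higher and 2 lower, against 6.36% and 7.12% of all genes tested.

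In activated cells, where 2 libraries of P12 had at least 20 cells of each lineage, 0 of 9 genes passed the test by edgeR and 0 by DESeq2, against 1.98% higher and 0.851% lower of all genes (1241 of 10581 genes at an unadjusted p below 0.05). Levels did not overlap for 5 of the 9, beside 30.8% of all genes tested. Cdkn2d had the largest difference among those tested, with 29.0 and 27.2 CPM in pallial against 16.6 and 12.8 in subpallial cells (log2 0.85 ± 0.29, adjusted p = 0.154). The higher Cdkn2c of the pallial quiescent clusters was not seen here, where single-cell gates and not clusters set the lineage. Levels of Cdkn2c were 47.2 and 40.8 against 46.4 and 37.6 CPM (log2 0.01 ± 0.21, adjusted p = 0.996). Cdkn1c stood at 3.56 and 1.86 CPM in pallial and 24.03 and 1.60 CPM in subpallial cells and was too low to be tested. Whether the activation step itself differs between lineages was tested by an interaction term, with quiescent cells also split by the gates and not by cluster. In it 0 of the 10 genes passed by edgeR and 0 by DESeq2, against 0.214% and 0.0713% of all genes (1328 of 12614 at an unadjusted p below 0.05). Cdkn2c came nearest, with a step smaller by log2 1.56 ± 0.32 in pallial cells (-1.56, adjusted p = 0.0566), and passed with every gene kept in the test (adjusted p = 3.26e-05) and with classes of at least 10 cells in all 4 libraries (0.0271).

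In dividing cells 1 of the 10 genes passed, against 1.43% higher and 0.552% lower of all genes. This was Ccnd2, at 1579 and 1652 CPM in pallial and 3972 and 2801 CPM in subpallial cells of the P12 libraries (log2 -1.14 ± 0.17, adjusted p = 0.0360), with no overlap. In postmitotic cells 2 genes were higher in glutamatergic than in GABAergic cells and 0 lower, against 5.53% and 4.94% of all genes (n = 3 libraries), and DESeq2 called 1 higher (Cdkn2c) and 1 lower (Ccnd2). Cdkn2c held 13.3, 30.5 and 66.2 CPM in glutamatergic and 6.83, 13.6 and 18.9 CPM in GABAergic cells at P2, P12 and P22, higher in 3 of 3 libraries with overlapping ranges (log2 1.18 ± 0.25, adjusted p = 0.0180). It did not pass without P22 (adjusted p = 0.253). Ccnd1 held 16.3, 47.4 and 17.6 against 7.14, 22.3 and 7.04 CPM (log2 1.05 ± 0.25, adjusted p = 0.0285) and did not pass without P2 (adjusted p = 0.106) or P22 (0.106) or with DESeq2 (0.0601). The glutamatergic cluster was led by Eomes, Pcp4 and Neurog2, and the GABAergic cluster by Nrgn, Stmn2 and Tac1. The study names Eomes and Neurog2 as early markers of the glutamatergic lineage. It also found a larger cycling share among cells with Tbr2, the Eomes protein, at P20 than at P2. The name postmitotic thus rests on class markers, and cell cycle exit was not tested within the glutamatergic cluster. Class markers differed between these lineages too. Summed aNSC markers came to 815 to 1213 CPM in glutamatergic and 580 to 627 CPM in GABAergic cells, TAP markers to 285 to 626 and 1198 to 2040 CPM and neuroblast markers to 4722 to 10698 and 14792 to 16381 CPM. Of the postmitotic class, 11.2% of cells in P12 library 1, 2.75% at P2 and 6.08% at P22 were called S or G2/M, and the part of these differences in the Cdkn2c, Ccnd1 and Ccnd2 levels was not tested.

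Ccnd2 showed the widest gap between postmitotic lineages. It held 147, 1202 and 637 CPM in glutamatergic and 1673, 2401 and 4004 CPM in GABAergic cells at P2, P12 and P22, with no overlap, and the fitted difference was log2 -2.55 ± 0.60. Its adjusted p was 0.0893 with edgeR and 3.70e-08 with DESeq2, and with edgeR 8.67e-06 without P12 and 0.0245 without P2. The P12 library held 64 glutamatergic and 61 GABAergic cells, and at P22 there were 59 glutamatergic cells.

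**Figure D4:**
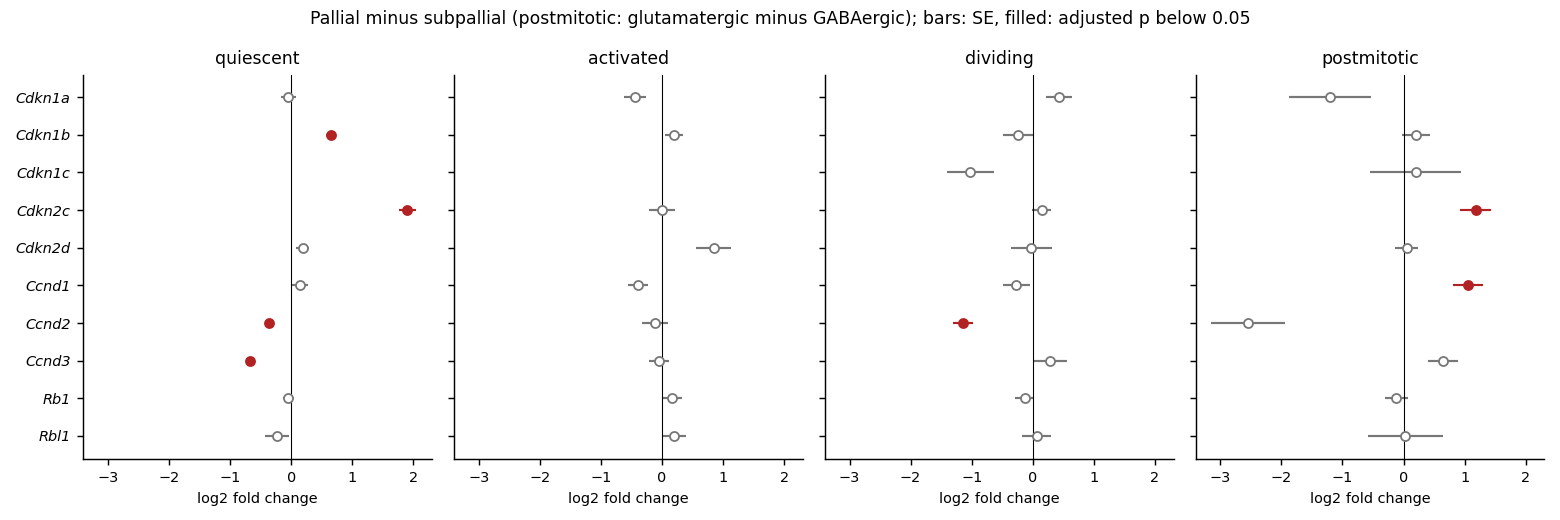
Log2 fold change of each gene between pallial and subpallial cells (glutamatergic minus GABAergic for postmitotic cells) in each state, bars ± SE and filled points with an adjusted p below 0.05. Lineage is set by cluster in quiescent and postmitotic cells and by single-cell gates in activated and dividing cells. Cdkn2c lies at 1.90 in quiescent, 0.01 in activated, 0.14 in dividing and 1.18 in postmitotic cells, and Ccnd2 lies below 0 in each state.

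Ages were compared without a test, since P2 and P22 had 1 library each, and intervals cover counting error only. The version of Cell Ranger in the file headers goes with age (3.1.0 at P12, 5.0.1 at P2 and P22), so that it is shared by the ages compared here. In quiescent cells 8 of the 10 genes had at least 10 CPM, and 1 was at least 2-fold higher and 1 at least 2-fold lower at P22 than at P2, beside 6.9% and 5.83% of all genes. Cdkn1a was 17.2-fold higher, at 64.2 CPM (95% interval 57.3 to 71.8) against 3.74 (2.48 to 5.40). The gap was 16.1-fold in pallial, 17.7-fold in subpallial cells and 13.1-fold within the Rgs5 cluster. Of the pallial cells 222 of 226 were in the Rgs5 cluster at P2 but 209 of 270 in the Thbs4 cluster at P22. The pallial folds thus compare different clusters. The study reports pallial quiescent cells as virtually absent at P2. Names were transferred from P12, with a median prediction score for quiescent cells of 0.80 at P2 and 0.93 at P22. Whether the quiescent class holds the same state at both ages was not tested. In oligodendroglial-like cells Cdkn1a held 0.573 CPM at P2 (2 UMIs, 95% interval 0.0694 to 2.07) and 28.1 CPM at P22 (24.5 to 32.1), intervals that were apart. The gap was 5.01-fold in the Igf1 cluster and 2.00-fold in ependymal-like cells, and in activated and dividing cells it was 1.203-fold and 1.02-fold.

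Ccnd1 was 3.80-fold lower in quiescent cells at P22, at 7.69 against 29.2 CPM, and the P12 libraries, at 10.9 and 7.19, lay near P22. The fold was 3.65 in pallial and 3.90 in subpallial cells, and 3.55 within the Rgs5 cluster, where P22 had 4 UMIs. In activated and dividing cells 0 of the 10 genes passed 2-fold, beside 1.89% higher and 1.58% lower of all genes in activated and 0.853% and 1.48% in dividing cells. In postmitotic cells 7 genes had at least 10 CPM, and 2 were at least 2-fold higher and 0 lower at P22, beside 2.38% and 6.67% of all genes. These were Ccnd2 (2.73-fold) and Cdkn2c (2.66-fold). Within lineages Ccnd2 was 4.34-fold higher in glutamatergic and 2.39-fold higher in GABAergic cells. Cdkn1c was 6.02-fold lower at P22 in glutamatergic cells, at 13.2 against 79.7 CPM, and 1.55-fold higher in GABAergic cells.

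**Figure D5:**
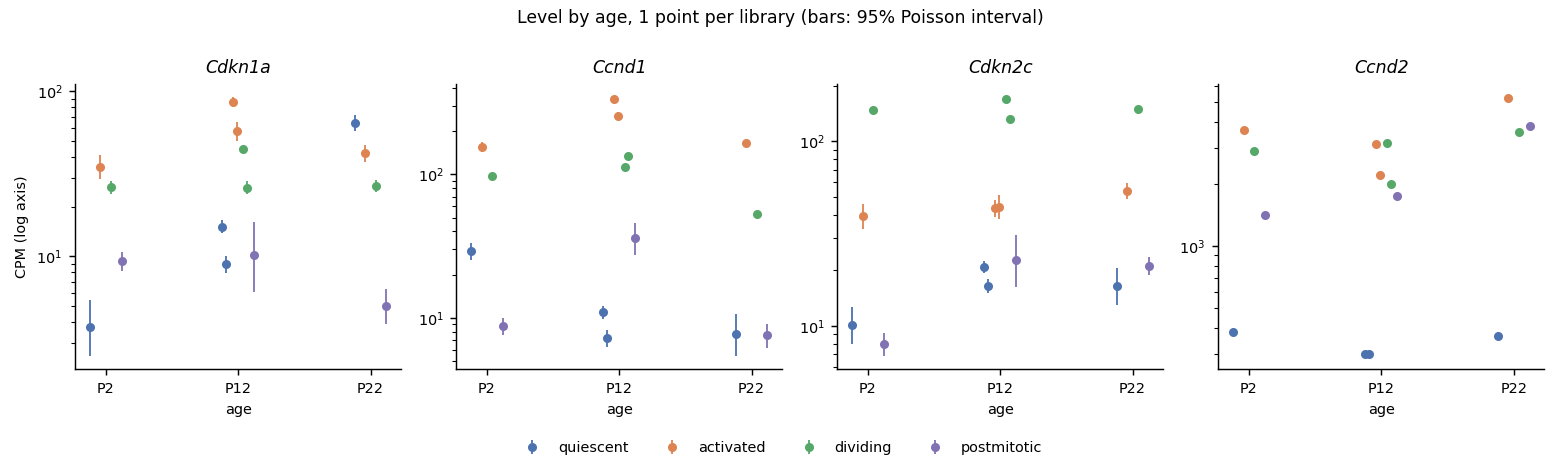
Level of Cdkn1a, Ccnd1, Cdkn2c and Ccnd2 in CPM (log axis) by age, with 1 point per library and exact 95% Poisson intervals, coloured by state. In quiescent cells Cdkn1a climbs from 3.74 CPM at P2 to 64.2 at P22 and Ccnd1 drops from 29.2 to 7.69, while in postmitotic cells Ccnd2 goes from 1410 to 3842 CPM.

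To find the genes with the most similar patterns, log2(CPM + 1) was correlated over 42 sums of a class in a library. These sums share libraries and depth, so that the coefficients are descriptions. Cdkn2c ran closest to the mitotic genes Sgo1 (Pearson r = 0.89) and Ttk (0.88), Cdkn2d to Kifc1 (0.83) and Fzr1 (0.82), and Rbl1 to the replication checkpoint gene Topbp1 (0.92) and to Wee1 (0.91). Ccnd2 ran closest to Cdca7 (0.92) and Hmgn2 (0.86) and Ccnd1 to Mtap (0.87) and Abcg2 (0.84). Cdkn1b ran closest to the transcription factor gene Meis2 (0.87), Cdkn1c to Slc29a4 and Bok (both 0.86), Rb1 to Usp19 (0.81) and Dyrk1a (0.79), and Ccnd3 to Suclg2 and Plcb3 (both 0.75). Cdkn1a had the weakest match, with Gm26802 and Anxa5 (both 0.63). Among the members the closest pair was Cdkn2c and Rbl1 (0.76), followed by Cdkn2c and Cdkn2d (0.70), and the most opposed pair was Cdkn1b and Ccnd3 (-0.59).

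Since Cdkn2c and Rbl1 ran together over the classes, their promoters are shown with E2F forms marked. RefSeq promoters (GRCm38.p6, 250 bases before to 50 after the start) were found for 6 of the 10 genes, with 9 promoters in all. They were searched on both strands for 4 E2F forms (TTTCCCGC, TTTCGCGC, TTTGCCGC and TTTGGCGC) and for the CHR of late cell cycle genes (TTTGAA). An E2F form was present in Rbl1, starting 18 bases before the start site, and in 2.26% of all 32851 promoters of the same length. The CHR letters were in 0 of the 9 promoters and in 17.9% of all. The E2F form is in capitals in the Rbl1 promoter (chr2:157204485-157204784, minus strand), and the Cdkn2c promoter shown is the one nearer the gene's 5' end (chr4:109666707-109667006, minus strand), which holds neither.
Rbl1: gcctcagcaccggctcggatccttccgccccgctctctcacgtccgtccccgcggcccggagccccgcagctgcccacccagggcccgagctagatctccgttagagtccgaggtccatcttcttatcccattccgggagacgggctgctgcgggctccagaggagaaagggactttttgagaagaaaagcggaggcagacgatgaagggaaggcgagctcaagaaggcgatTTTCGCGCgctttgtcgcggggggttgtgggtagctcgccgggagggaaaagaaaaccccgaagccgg
Cdkn2c: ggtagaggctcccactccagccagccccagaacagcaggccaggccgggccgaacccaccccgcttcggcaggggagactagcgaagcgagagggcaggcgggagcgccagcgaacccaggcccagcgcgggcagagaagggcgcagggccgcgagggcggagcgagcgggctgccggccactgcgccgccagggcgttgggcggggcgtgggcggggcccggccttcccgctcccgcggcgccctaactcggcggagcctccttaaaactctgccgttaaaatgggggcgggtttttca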

How the data were processed

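The authors made UMI counts, not normalized, with Cell Ranger on mm10 (3.1.0 per the labels and the P12 file headers, 5.0.1 per the file headers of P2 and P22) and deposited these as 1 matrix a library. Barcodes with 2000 to 8000 genes entered, if mitochondrial genes took at most 10% of their UMIs. P12 cells were clustered with Seurat 5.3.0 (R 4.3.3) on 2000 variable genes less those among the 86 genes held out, which left 1953, with 20 components and resolution 0.5, and names were transferred to P2 and P22. The rule that scores clusters against the fixed markers was chosen after the data were seen, as was the alternative that adds cluster 8 to the activated class. The classes were made from other genes of the same cells. Doublets were not removed (Scrublet in scanpy 1.11.5 called 42, 108, 3 and 47 cells, in P2, P12 libraries 1 and 2 and P22), and an alternative leaves out the top 5% of scores in each library.

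Cells are not replicates, so UMIs were summed per library and class of at least 20 cells and tested with edgeR 4.0.16 (glmQLFit, glmQLFTest, robust, TMM, filterByExpr, Benjamini-Hochberg over all genes tested, two-sided, threshold 0.05), with DESeq2 1.42.0 as an alternative. The library was a block, since its classes share their animals. Between libraries, p-values measure the spread of the class difference over ages and experiments together. TMM moved log2 differences from those of CPM by up to 0.15. Poisson intervals (95%) cover counting error only. Single-cell gates set the lineage of activated and dividing cells, of quiescent cells in the interaction term, and of quiescent and postmitotic cells in the gate alternatives. By these gates, pallial cells passed a log-normalized value of 0.25 for Emx1, Neurod1, Neurod6, Neurog2 or Tbr1 and for none of Gsx2, Dlx6, Dlx5, Sp9, Dlx2 and Gad1. Subpallial cells met the reverse. Dividing cells that had an Olig1 or Olig2 UMI were left out of both. The scripts were tested on simulated data. The 10 genes, the gene lists and the tests were chosen with earlier results of these data known. All 10 genes were named in each comparison, from each list at most 4 genes past the threshold with the largest changes in a comparison, and for likeness the 2 genes with the highest r among those of at least 10 CPM, of which 1 is not reported here.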

Additional observations from a re-analysis of the deposited data

Results flagged for a closer look

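For 4 genes the difference between classes ran in opposite directions at P22 and at an earlier age, beyond the 95% counting intervals of the levels. These values are differences of log2(CPM + 1) in single libraries, and differences between ages were not tested. Over all members and comparisons, 43 pairs of groups had opposite signs. These were pairs of ages or, for the activation step at P12, the pallial and subpallial lineages. Of them 11 were beyond counting error, all pairs of ages. Cdkn1a was higher in activated than in quiescent cells at P2 (2.93) and at P12 (2.43 and 2.55) and lower at P22 (-0.60). Cdkn1b was lower in activated cells at P2 (-0.33) and P12 (-0.58 and -0.74) and higher at P22 (0.18). From dividing to postmitotic cells Cdkn1b was lower at P2 (-0.22) and P12 (-0.15) and higher at P22 (0.20), and Ccnd2 was lower at P2 (-1.04) and P12 (-0.86) and higher at P22 (0.11). Cdkn1c was higher in glutamatergic than in GABAergic postmitotic cells at P2 (1.62) and lower at P22 (-1.49). Between dividing cells in G2/M and S, Ccnd2 was higher in G2/M at P2 (0.16) and P12 (0.33 and 0.40) and lower at P22 (-0.09).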

How the results depend on the processing

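Over single genes, 784 values under an alternative kept their direction and side of the threshold, 44 lost the call, 23 gained it, 36 moved without a call and 9 reversed. Of those that reversed, 8 came from marker thresholds, namely Cdkn2d on activation (0.69), Cdkn1a (0.45), Ccnd1 (0.13) and Ccnd2 (1.18) from activated to dividing cells, and Cdkn1b (1.14), Cdkn2d (1.17), Ccnd2 (0.37) and Rb1 (0.53) from dividing to postmitotic cells. The other was Cdkn1c from activated to dividing cells with cluster 8 (-0.093). With no replicate block 20 member calls were lost. The pairing is real, since classes share animals, and without the block genes called went from 5323 to 434 from activated to dividing cells (members 2), from 6573 to 3249 in the postmitotic step, from 5623 to 351 for G2/M (members 1), from 2873 to 112 between quiescent lineages (members 1), from 299 to 22 between activated, from 216 to 23 (members 0) between dividing and from 1115 to 467 (members 0) between postmitotic lineages, and from 36 to 1 for the interaction. Marker thresholds gave 3803 genes in the postmitotic step and 4 members from activated to dividing cells. Between quiescent lineages DESeq2 called 1878 genes, P12 alone 4580 and gates 1526, and leaving out a library 1370 to 3556. Between activated lineages DESeq2 called 59, the narrower filter of 2500 to 7500 genes 465 and the fit without high doublet scores 182, and 1 member (Cdkn1c, lower in pallial cells) passed with every gene kept or at 10 cells. Between dividing lineages every gene kept gave 645 and the narrower filter 122. Between postmitotic lineages every gene kept gave 2103 and gates 1 member (Cdkn2c), and leaving out a library gave 654 to 1913 genes and 0 to 4 members. For the interaction every gene kept gave 289 genes and 1 member, and 1 member passed at 10 cells (Cdkn2c in both). Without a library 6192 to 7933 genes (5 to 7 members) were called on activation, 4004 to 4820 (9 members) from activated to dividing cells, 4734 to 5545 (7 to 9 members) in the postmitotic step and 4339 to 5263 (5 to 7 members) for G2/M, and 4 members between quiescent lineages. Leaving out a library was not run for comparisons with 2 libraries, which leave no replicate, and neither P12 alone for the postmitotic comparisons nor 10 cells where it adds no library gave another value. Some levels under about 10 CPM rest on few UMIs, as for Cdkn1c in quiescent cells (7 to 24 UMIs a library). Others do not, as for Rbl1 in P12 quiescent cells (154 and 212 UMIs).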

Other observations

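In dividing cells every cell was called S or G2/M in each library, so that the share of cycling cells among those with and without a UMI of a member was 100% on both sides and separates nothing. Cluster 8, led by Olig1 and left unnamed, held Ccnd1 at 154 CPM at P2, 235 and 104 at P12 and 123 at P22, and Ccnd2 at 1068, 1378, 897 and 2773 CPM. Its Cdkn2c stood at 21.5, 19.1, 26.3 and 22.1 CPM and its Rbl1 at 9.29, 8.30, 8.33 and 11.03 CPM, below the activated class in each library. Cluster 4, led by Igf1 and Wfikkn2, held Ccnd1 at 75.2, 39.9, 29.2 and 39.7 CPM, above the quiescent class of the same library in 4 of 4.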
